A study of Mus musculus with 12 samples.

Results

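The comparison described here set mouse embryonic stem (ES) cells that had received SUMO-deficient Dppa2 and Dppa4 against cells that had received the wild-type proteins. Its members were chosen by sample title and are 6 of the 12 arrays of the study, 3 labelled KO+Dppa2/4 Mut-GFP and 3 labelled KO+Dppa2/4 WT-GFP. All 12 samples carried the MERVL::tdTomato reporter, a red fluorescent protein under the promoter of an endogenous retrovirus. The 3 parental samples carried nothing else, and the 3 knockout samples had lost Dppa2 and Dppa4. Both add-back groups were made in knockout cells by lipofection of plasmids for the GFP-tagged proteins, and GFP-positive cells were sorted. The labels do not say that parental or knockout cells went through transfection or sorting. The sources used here do not give the mutated residues, the time after transfection, the promoter of the plasmids or whether the knockout line was 1 clone. All cells grew on gelatin with serum replacement and LIF, a cytokine that keeps mouse ES cells undifferentiated, and total RNA was hybridised to Affymetrix whole-transcript arrays. The labels call the samples biological replicates without saying whether they were separate cultures, so the p-values measure only the spread between these samples.

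Dppa2 and Dppa4 are small chromatin-bound proteins of pluripotent cells and germ cells that act as a pair and share a SAP DNA-binding domain. They are activators of Dux, a homeodomain factor that switches on the genes of the 2-cell embryo in the rare ES cells called 2-cell-like (2C-like). SUMO is a small protein attached to lysines of other proteins, often on chromatin factors that repress transcription, and PIAS4, a SUMO ligase, is known to restrain Dppa2 and the 2C-like state.

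No gene among the 22180 measured passed the test between the add-backs, in either direction (limma, adjusted p under 0.05, 0% called). At an unadjusted p under 0.05 there were 675 genes (3.04%), of which 307 were higher with the SUMO-deficient proteins (1.38%) and 368 lower (1.66%). With the replicate number as a block over all 12 arrays, parental and knockout arrays included, the adjusted count was again 0. In that fit 1214 genes (5.47%) had an unadjusted p under 0.05. With the block and the 6 add-back arrays only, the adjusted count was also 0. What the data do show is a pattern of values in the genes of the 2C-like program, whose means were mostly higher with the SUMO-deficient proteins although none passed the test. Of 70 measured genes of 6 lists of 2-cell genes, 52 had the higher mean with the SUMO-deficient proteins, against 47.7% of all genes, and their median difference was 0.29 on the log2 scale, against -0.01 for all genes. The groups overlapped for most of them, since every SUMO-deficient array was above every wild-type array for 4 of the 70 (3.07% of all genes), Duxf3, Tdpoz4, AF067063 and Obox6. Within same-numbered pairs, 35 of the 70 were higher in all 3 pairs, against 12% of all genes. The lists were chosen with earlier results of these data known. They hold families of related genes, so the 70 are not independent of each other. Without wild-type replicate 1 the median difference of the 70 was 0.07, with 46 higher.

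The precision of the comparison was uneven across genes. For all genes the median half-width of the 95% interval of the difference was 0.34, and the interval lay within a 2-fold change for 21757 genes (98.1%) and within a 1.5-fold change for 16897 (76.2%). For the 35 genes of the 5 family lists of 2-cell genes the median half-width was 0.82, and the interval lay within a 2-fold change for 14 of them while 21 reached a 2-fold higher level. For all 5 Zscan4 genes it reached 2-fold higher. The unadjusted interval lay above 0 for 4 of the 35, Tdpoz3, Tdpoz4, Pramel33 and AF067063, and below 0 for none. All these intervals come from the fit without the replicate block. For the 5 Zscan4 genes the unadjusted limma p was 0.097 to 0.245 in that fit. With the replicate block over the arrays of all 4 groups it was 0.027 to 0.182, and the adjusted p was 0.873 or more.

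**Figure D1:**
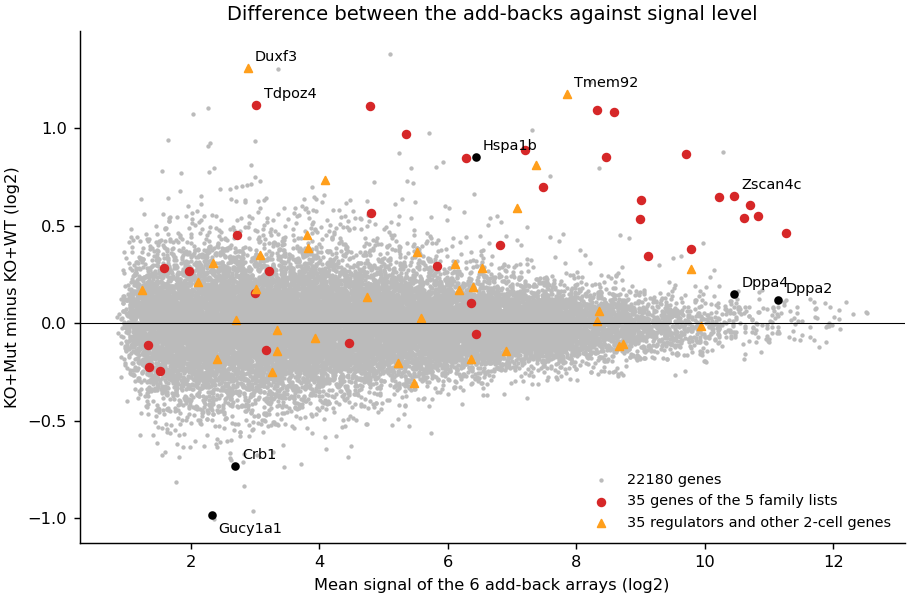
Difference between the add-backs (KO+Mut minus KO+WT, log2) against the mean log2 signal of the 6 add-back arrays, 1 point per gene, with the genes of the 2C-like lists drawn in colour. At mean signals of 6 and above, the genes that lie 0.5 or more from 0 are all on the higher side. Of those 30, 17 are in the 2C-like lists, which hold 35 of the 6576 genes at that level. Without wild-type replicate 1 the difference was 0.08 for Zscan4c and 0.51 for Tdpoz3.

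RNA of the proteins put back was high in both add-backs. In knockout cells Dppa2 still measured 8.13, 8.69 and 8.63 and Dppa4 7.92, 7.63 and 7.31 (log2 signal), below parental cells at 9.35, 9.81 and 10.16 for Dppa2 and 8.24, 8.58 and 8.55 for Dppa4. Whether the probes lie in the deleted part was not checked, so the knockout arrays carry some signal of unknown source. Dppa2 measured 10.79, 11.34 and 11.11 in wild-type add-back replicates 1 to 3 and 11.12, 11.30 and 11.17 in the SUMO-deficient ones. Dppa4 measured 10.09, 10.58 and 10.49 against 10.55, 10.67 and 10.39. The groups overlapped for both genes, with wild-type replicate 1 the lowest of the 6 arrays. The difference was 0.12 (SE 0.21, 95% interval -0.34 to 0.58) for Dppa2 and 0.15 (SE 0.18, -0.23 to 0.53) for Dppa4. Without wild-type replicate 1 it was -0.03 for Dppa2 and 0.00 for Dppa4. RNA levels say nothing of the amount of protein or of its SUMO modification. A protein sequence for either is not used here.

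The Zscan4 genes, a cluster on chromosome 7 coding for SCAN and zinc finger proteins of the 2-cell embryo that act in telomere maintenance, had high signals in both add-backs. They are near-identical copies whose probes can read each other's transcripts, so the 5 are not independent. The starts of Zscan4c and Zscan4d are shown first because both genes were high in both add-backs, and the start of Duxf3, the mouse Dux gene, because it had the largest difference among the genes of the 6 lists. Each run covers 250 bases before to 50 after the start in RefSeq (GRCm38.p6), 5′ to 3′ on the strand of the gene, with the letters TATAAAA in capitals. The windows are chr7:11005495-11005794 on the plus strand for Zscan4c, chr7:11166099-11166398 on the minus strand for Zscan4d and chr10:58233040-58233339 on the minus strand for Duxf3.
Zscan4c: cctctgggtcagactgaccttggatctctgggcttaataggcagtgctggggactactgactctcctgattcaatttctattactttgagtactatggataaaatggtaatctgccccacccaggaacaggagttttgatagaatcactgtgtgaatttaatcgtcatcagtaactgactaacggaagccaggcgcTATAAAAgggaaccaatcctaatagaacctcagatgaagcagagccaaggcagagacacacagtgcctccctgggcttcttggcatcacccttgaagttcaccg
Zscan4d: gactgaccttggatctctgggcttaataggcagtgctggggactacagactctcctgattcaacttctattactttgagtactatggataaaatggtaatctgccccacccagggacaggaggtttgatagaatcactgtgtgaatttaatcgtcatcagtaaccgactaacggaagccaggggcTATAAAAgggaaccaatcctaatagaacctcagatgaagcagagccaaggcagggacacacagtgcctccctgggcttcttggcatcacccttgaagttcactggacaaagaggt
Duxf3: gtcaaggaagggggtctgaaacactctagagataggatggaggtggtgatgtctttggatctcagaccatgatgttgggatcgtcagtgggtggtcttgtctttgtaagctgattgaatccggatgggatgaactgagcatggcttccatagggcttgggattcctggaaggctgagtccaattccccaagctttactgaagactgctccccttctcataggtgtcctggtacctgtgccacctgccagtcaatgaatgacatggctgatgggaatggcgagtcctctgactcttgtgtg

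The Zscan4c and Zscan4d windows overlap by 289 bases once shifted by 11, and 281 of those are identical (97.2%). TATAAAA begins at -54 in Zscan4c and -65 in Zscan4d and was not found in the Duxf3 window on either strand. Promoters were listed for 20 of the 35 genes of the 5 family lists. TATAAAA on either strand was in 7 of these 20 windows (35%), in 1 of 31 windows (3.23%) of 27 regulators and other 2-cell genes, and in 1801 of all 32851 windows (5.48%). The median number of CG dinucleotides was 2, 11 and 7 in the 3 sets. The family lists hold near-identical copies such as Zscan4c and Zscan4d, so their windows are not independent of each other. A match is a description of the letters and not a binding site.

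Zscan4c measured 8.98, 10.31 and 11.08 in wild-type replicates 1 to 3 and 10.12, 10.65 and 11.56 in the SUMO-deficient ones. Zscan4d measured 6.33, 8.41 and 9.37 against 8.08, 8.80 and 9.79. The groups overlapped for both genes, wild-type replicate 1 was the lowest array and SUMO-deficient replicate 3 the highest. The difference was 0.65 (SE 0.47, 95% interval -0.36 to 1.66) for Zscan4c and 0.85 (SE 0.67) for Zscan4d. Zscan4a, Zscan4b and Zscan4e differed by 1.10 (SE 0.61), 0.86 (SE 0.56) and 0.55 (SE 0.45), each with an adjusted p of 1. All 5 genes were higher with the SUMO-deficient proteins in all 3 same-numbered pairs, where 12% of all genes were, and for none of them did the groups stand apart. The mean of the 5 was 7.79, 9.39 and 10.28 in the wild-type arrays and 9.21, 9.88 and 10.78 in the SUMO-deficient arrays, beside 3.29 ± 0.08 (SD, n = 3) in knockout cells. In bulk RNA, a change in the number of 2C-like cells and a change in the RNA of each such cell cannot be told apart.

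**Figure D2:**
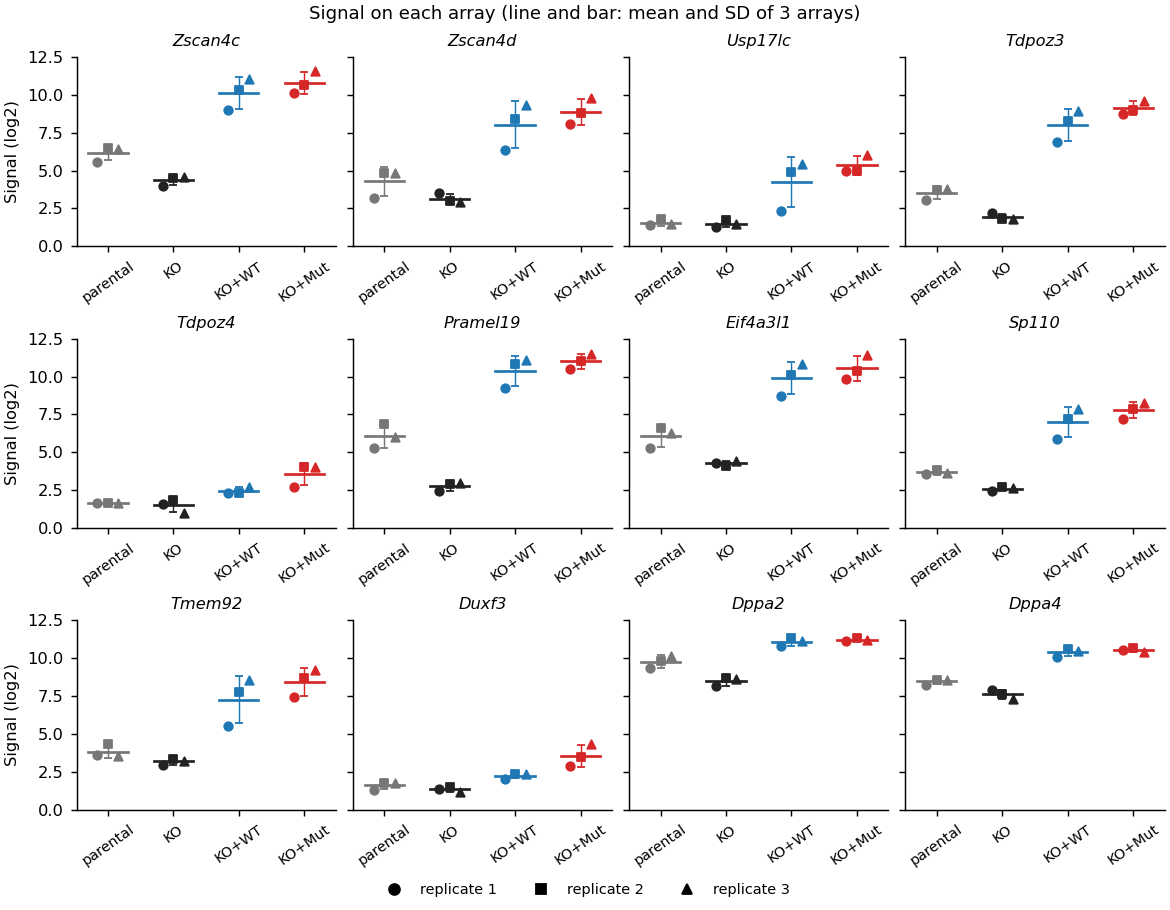
Log2 signal of 12 genes on each array of the 4 groups, 1 point per array with a line at the group mean and a bar for the SD of 3 arrays. The 2 add-back groups overlap for Zscan4c, at 8.98 to 11.08 and 10.12 to 11.56, while they do not for Duxf3, at 2.04 to 2.34 and 2.85 to 4.33.

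The Usp17l genes code for deubiquitinases of the 2-cell embryo. Usp17lc measured 2.34, 4.90 and 5.47 in the wild-type arrays and 5.001, 4.9996 and 6.06 in the SUMO-deficient arrays. Wild-type replicate 1 stood far below the other 5 arrays, which overlapped. The difference was 1.11 (SE 0.59, 95% interval -0.16 to 2.39, adjusted p = 1), and Usp17lb and Usp17le differed by 0.97 and 0.38. All 5 measured members had the higher mean with the SUMO-deficient proteins, with a median of 0.38, and 4 were higher in every pair.

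Of the Tdpoz genes, which code for TRAF and BTB domain proteins of the early embryo, 2 of 4 had the higher mean. Tdpoz3 measured 6.89, 8.26 and 8.97 against 8.75, 8.995 and 9.62, a difference of 1.08 (SE 0.41, 95% interval 0.19 to 1.97, adjusted p = 1). Its groups overlapped, and the difference was 0.51 without wild-type replicate 1. Tdpoz4 measured 2.34, 2.33 and 2.73 against 2.74, 4.01 and 4.00, a difference of 1.12 (SE 0.30, 0.46 to 1.77, adjusted p = 1). Every SUMO-deficient array was above every wild-type array for this gene, as for 3.07% of all genes, though the nearest arrays, at 2.74 and 2.73, almost touched. The mean signal of Tdpoz4 was low, at percentile 17.1 of the genes, and without detection calls such values cannot be separated from background.

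The Pramel genes, leucine-rich repeat proteins of germ cells and early embryos, were measured with the Tcstv genes, which are 2-cell transcripts. Of these 13 genes 9 had the higher mean and 4 the lower, with a median of 0.27. Pramel19 measured 9.26, 10.84 and 11.09 in the wild-type arrays and 10.50, 11.05 and 11.46 in the SUMO-deficient arrays, which overlapped (difference 0.61, SE 0.46). Pramel31 and Tcstv3 differed by 0.85 and 0.70. Pramel19, Pramel31 and Tcstv3 differed by 0.04, 0.10 and 0.04 without wild-type replicate 1. The median of the 13 genes was then 0.04, with 8 higher. The 8 genes related to translation factors or known by predicted names all had the higher mean, with a median of 0.54, among them Eif4a3l1 at 0.65, a relative of the RNA helicase of the exon junction complex. Without wild-type replicate 1, 7 of the 8 were higher, with a median of 0.07, and Gm20767 turned to -0.38.

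The regulators and other 2-cell genes were more mixed, with 23 of 35 higher and a median of 0.17. Duxf3 had the largest difference of the 70 genes. It measured 2.04, 2.33 and 2.34 in the wild-type arrays and 2.85, 3.44 and 4.33 in the SUMO-deficient arrays, beside 1.37, 1.49 and 1.13 in knockout cells. The groups did not overlap, and the spread was wider with the SUMO-deficient proteins. The difference was 1.31 (SE 0.28, 95% interval 0.69 to 1.92), which did not pass the test (adjusted p = 1, and 0.783 with the replicate block). All these signals were near or below the median probe set of an array, and without detection calls such values cannot be separated from background. Against knockout cells the difference was 0.91 (adjusted p = 0.204) with the wild-type proteins and 2.21 (adjusted p = 0.0016) with the SUMO-deficient ones. Duxf3 is one of a tandem array of near-identical copies that probes cannot separate.

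Tmem92, a membrane protein gene of the program, measured 5.52, 7.74 and 8.53 against 7.44, 8.67 and 9.20, which overlapped (1.18, SE 0.61, 95% interval -0.15 to 2.50). Sp110, a nuclear body protein, measured 5.87, 7.23 and 7.83 against 7.23, 7.86 and 8.28 (0.81, SE 0.38), while its other probe sets differed by 0.52 and -0.09. Spz1, a bHLH factor of the testis, differed by 0.73, and Arg2, the mitochondrial arginase, by 0.59. Nelfa, a subunit of the negative elongation factor that acts upstream of Dux, differed by 0.28. Without wild-type replicate 1 the sign of all 3 turned, at -0.088 for Spz1, -0.067 for Arg2 and -0.104 for Nelfa. Obox6, an oocyte homeobox gene, was above in every array at a difference of 0.35, and Obox5 was below in every array, as were 3.62% of all genes. The mean of Obox6 was 2.91 with the wild-type and 3.26 with the SUMO-deficient proteins, beside 3.17 in knockout cells. Neither add-back passed the test against knockout cells for this gene. The lowest value of the list was -0.31 for Tcl1b1, of the Tcl1 family of AKT coactivators.

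The size of these differences varied between pairs and with the arrays used. Over the 35 family genes the mean was 5.45, 6.36 and 6.74 in wild-type replicates 1 to 3 and 6.27, 6.70 and 7.03 in the SUMO-deficient ones, so that wild-type replicate 1 was the lowest. In the same-numbered pairs the mean differed by 0.81, 0.34 and 0.28. For the 5 Zscan4 genes it differed by 1.42, 0.49 and 0.50, and for the 5 Usp17l genes by 1.39, 0.26 and 0.21. The higher level in every pair held for 23 of the 35 family genes and 35 of the 70 (12% of all genes). A lower level in every pair held for 1 of the 35 and 4 of the 70 (14.8% of all genes).

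Without wild-type replicate 1 the median difference of the 35 genes was 0.08, with 27 of 35 higher, and that of the 70 was 0.07, with 46 higher. Without pair 1 it was 0.29 for the 35, with 30 higher, and 0.15 for the 70, with 51 higher. The Zscan4 median was 0.08 without wild-type replicate 1 and 0.41 without pair 1, and that of the regulators was 0.02 and 0.08. Other arrays moved the Zscan4 genes too: without SUMO-deficient replicate 3 the difference was 0.26 for Zscan4c and 0.44 for Zscan4b, and without wild-type replicate 3 it was 1.80 for Zscan4a. For Duxf3 the difference was 1.21 without wild-type replicate 1 and 1.56 without pair 1, and for Tdpoz4 1.05 and 1.48. Dppa2 and Dppa4 were also lowest in wild-type replicate 1, and the part of their level in the difference was not tested.

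**Figure D3:**
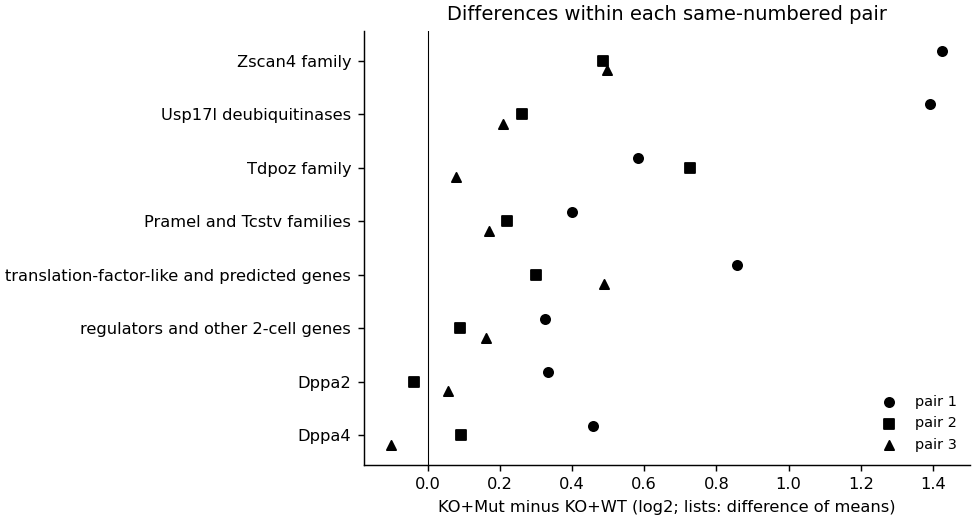
Difference within each same-numbered pair of arrays (KO+Mut minus KO+WT, log2) for the mean of each list of 2-cell genes and for Dppa2 and Dppa4, 1 point per pair. The first pair is the highest for the Zscan4 mean, at 1.42 against 0.49 and 0.50, and for Dppa4, at 0.46 against 0.09 and -0.10.

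Many 2C-like genes rose above knockout cells in both add-backs. Both contrasts share the knockout arrays, so their values are set side by side and not compared. With the wild-type proteins 26 of the 70 genes rose and with the SUMO-deficient proteins 35, beside 0.73% and 1.12% of all genes. All 5 Zscan4 genes and 7 of the 8 translation-factor-like and predicted genes rose in each add-back. The Usp17l genes rose in 4 and 5 of 5, the Tdpoz genes in 1 and 2 of 4, the Pramel and Tcstv genes in 3 and 5 of 13, and the regulators in 6 and 11 of 35. Usp17lc, Tdpoz4, BC147527, AF067063, Duxf3, Spz1, Nelfa, Olfr376 and Snai1 passed the test against knockout cells with the SUMO-deficient and not with the wild-type proteins. The difference between the add-backs itself did not pass for any of these (adjusted p = 1 for each).

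The genes named by smallest p, given here although they did not pass the test, had groups that did not overlap and 1 sign in all 3 pairs. Of these 20, 16 had a mean signal below percentile 50 of the genes. Gucy1a1, a subunit of the nitric oxide receptor guanylate cyclase, had the lowest adjusted p of all genes (0.0832, and 0.347 with the replicate block). It measured 2.60, 2.81 and 3.04 in the wild-type arrays and 1.86, 1.90 and 1.75 in the SUMO-deficient arrays, a difference of -0.98 (SE 0.13, 95% interval -1.26 to -0.71), and the other 22179 genes had an adjusted p of 1. Its signals were in the lowest part of the scale, at percentile 14.5 of the genes. Against knockout cells it differed by 0.64 with the wild-type proteins (adjusted p = 0.0373) and by -0.34 with the SUMO-deficient ones (adjusted p = 0.280).

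Hspa1b, an inducible Hsp70 chaperone, measured 6.10, 6.26 and 5.68 against 6.57, 6.73 and 7.29, a difference of 0.85 (SE 0.20, 95% interval 0.42 to 1.28, adjusted p = 1). Against knockout cells it rose by 1.40 with the SUMO-deficient proteins (adjusted p = 0.0031), and was 0.55 above with the wild-type proteins (adjusted p = 0.292). Its neighbour Hspa1a, a near-identical copy whose reads on probes cannot be fully separated, measured 4.59, 5.36 and 5.08 against 5.60, 5.26 and 6.36 (0.73, SE 0.25), and its groups overlapped. Ascl2, an imprinted bHLH factor of the trophoblast, measured 4.48, 4.66 and 4.30 against 4.94, 5.19 and 4.97, a difference of 0.55.

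The other genes of higher mean were Dusp10 (0.58), a phosphatase of stress-activated MAP kinases, the nucleoside transporter Slc28a2 (0.71), the zinc transporter Slc39a5 (0.66), the natural killer receptor Klrc1 (0.92), Ube2dnl2 (1.07), the drug efflux pump Abcb1a (0.70) and the LIM homeobox gene Lmx1a (0.64). Those of lower mean were Crb1 (-0.73), a cell polarity gene, Serpina1b (-0.44), an alpha-1-antitrypsin gene, the myosin heavy chain Myh2 (-0.63), Srrm4 (-0.43), a neuronal splicing regulator, Wnt10b (-0.51), Ttc22 (-0.50), the interferon gene Ifna6 (-0.67), Lrrc7 (-0.66) and Accsl (-0.53). Accsl fell by 1.10 with the SUMO-deficient proteins against knockout cells (adjusted p = 0.0006) and was at -0.57 with the wild-type proteins (adjusted p = 0.0633).

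**Figure D4:**
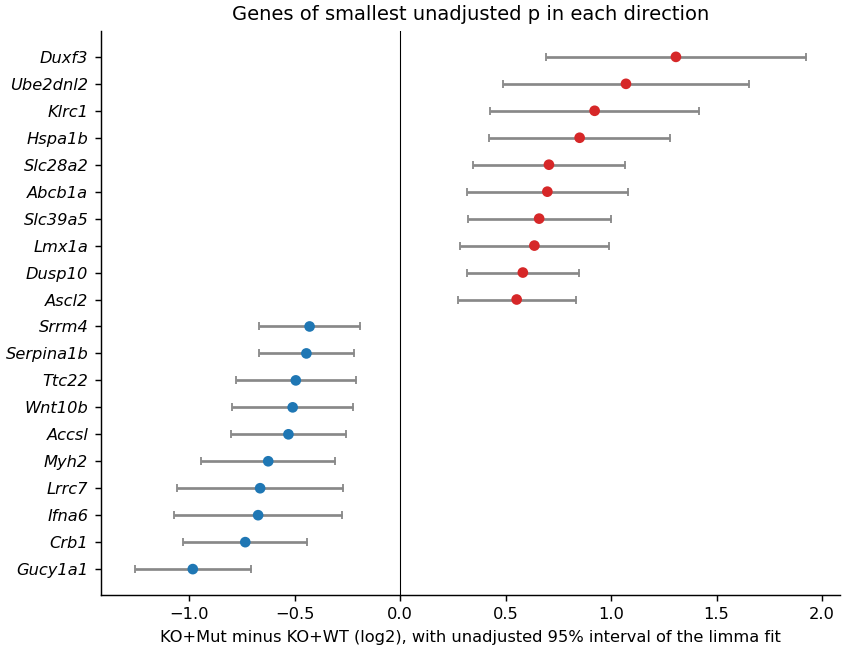
Difference between the add-backs (KO+Mut minus KO+WT, log2) for the 10 genes of higher and the 10 of lower mean with the smallest unadjusted p, each point with its unadjusted 95% limma interval. No interval includes 0, as the choice by small p entails, and none of the 20 passed the test after adjustment. Gucy1a1 lies lowest, at -0.98 (-1.26 to -0.71), and Duxf3 highest, at 1.31 (0.69 to 1.92).

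Among all genes the differences ran from -1.01 to 1.38, and 11 genes were 2-fold or more higher with the SUMO-deficient proteins while 1, Vmn1r148, was that much lower. The 11 were picked out after their values were seen and carry no test. They hold 6 of the 2C-like lists (Duxf3, Tmem92, Usp17lc, Tdpoz4, Tdpoz3 and Zscan4a), together with Pramel20 at 1.38, Gm5329 at 1.30, Gm11546 at 1.24, Vmn1r227 at 1.10 and Ube2dnl2 at 1.07. Pramel20 measured 3.41, 3.81 and 6.02 against 5.14, 5.11 and 7.12, so that replicate 3 was far above the others in both groups. At mean signals of 6 or more, 30 of 6576 genes were 0.5 or more higher and 0 were 0.5 or more lower. Of the 30, 17 were in the 2C-like lists, which held 35 of the 6576. At 8 or more it was 14 of 1869 higher and 0 lower. Of the 14, 11 were in those lists, which held 20 of the 1869. These counts use all arrays. Leaving out wild-type replicate 1 gave 0.08 for Zscan4c, 0.04 for Pramel19 and 0.07 for Eif4a3l1, while Tdpoz3 stayed at 0.51 and Hspa1b at 0.89.

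Lists outside the 2C-like program had medians between -0.06 and 0.12, and no member of any passed the test. Of 33 naive pluripotency genes 24 had the lower mean, with a median of -0.04, and all 33 intervals lay within a 2-fold change. Fbxo15, an F-box gene of ES cells, measured 9.28, 9.45 and 9.63 against 9.76, 9.69 and 9.95 (0.34). It was above in every array, as were 3.07% of all genes. Sox2, a core pluripotency factor, differed by -0.10, Stat3, the effector of LIF, by -0.16 and the homeobox gene Gbx2 by -0.17. Of 25 formative and primed genes 18 were lower (median -0.06), with Otx2 at -0.19 (0.011 without SUMO-deficient replicate 1) and Sox3, a SoxB1 factor, at 0.38.

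Of 50 germline and meiosis genes, a class known to be regulated by Dppa2 and Dppa4, 23 were higher and 27 lower, with a median of -0.01. Nanos3 and Nanos2, RNA-binding regulators of germ cells, differed by -0.57 and -0.46, and Sycp1 of the synaptonemal complex by 0.64. Sycp1 differed by 1.74, -0.21 and 0.37 in the 3 pairs, and by 0.16 without wild-type replicate 1. Without that array 33 of the 50 germline genes were higher, with a median of 0.056. The 29 imprinted genes had a median of 0.03, with Peg3 at 0.30, Plagl1 at 0.25 and Dlk1 at 0.36. Peg3 and Plagl1 were above in every array, as were 3.07% of all genes. The other probe set of Plagl1, of lower signal, differed by -0.03. The 21 genes of SUMO conjugation and removal had a median of -0.02, and all 21 intervals lay within a 2-fold change. Sumo3 and Sumo2, the modifiers themselves, differed by -0.17 and -0.13, and the SUMO-targeted ubiquitin ligase Rnf4 by -0.07. The other probe set of Sumo3, of lower signal, went the other way at 0.18. The 28 silencing factors had a median of 0.01 with all 28 intervals within a 2-fold change, among them the H3K9 methyltransferase Ehmt1 at -0.17, the histone chaperone Daxx at 0.19, the Polycomb protein L3mbtl2 at 0.15 and Smchd1 at 0.13. Without wild-type replicate 1 the medians were -0.072 for the SUMO genes and -0.034 for the silencing factors, of which 10 rather than 16 were higher.

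Lineage lists had medians of -0.03 for 25 endoderm genes, -0.05 for 22 mesoderm genes, -0.05 for 22 neuroectoderm genes and 0.06 for 24 trophectoderm genes. Among their members the basement membrane genes Col4a1 and Sparc differed by -0.33 and -0.21, the heart factor Hand1 by -0.49 and the lipid-binding Fabp7 by 0.39. Stress lists had medians of -0.01 for 22 p53 targets, 0.00 for 30 genes of ATF4 and the unfolded protein response, and 0.01 for 28 interferon and nucleic acid sensing genes. Of the 30 ATF4 genes 15 were higher, and without wild-type replicate 1 it was 23, with a median of 0.12. The exonuclease gene Isg20 differed by 0.47, the chemokine Cxcl10 by 0.29 and Ifit3 by -0.29. Of 27 immediate early and heat shock genes 21 were higher, with a median of 0.08, including Egr1 at 0.37 and Dnajb1 at 0.25, and without wild-type replicate 1 it was 16 of 27 and 0.03.

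**Figure D5:**
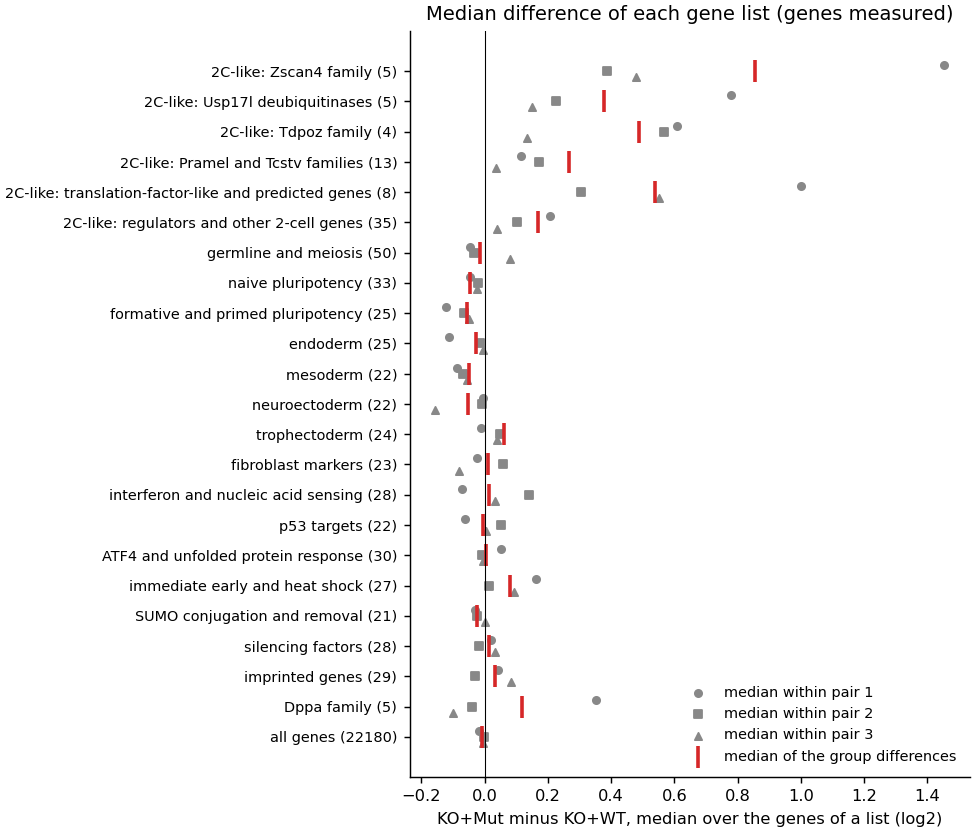
Median over the genes of each list of the difference KO+Mut minus KO+WT (log2), as a red bar for the group means and a grey point for each same-numbered pair of arrays. The red bars of the 2C-like lists lie at 0.17 to 0.85, to the right of all other lists, and the Zscan4 median is 1.45, 0.39 and 0.48 in pairs 1 to 3.

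The arrays were alike in technical measures. The add-back arrays had medians of 3.84 to 3.88, no pair of the 12 arrays held identical values, and the 15 pairs of add-back arrays correlated at 0.974 to 0.987 across genes, which are not independent replicates. The labelled cell type was borne by its markers, since 7 of 8 ES cell markers were above the upper quartile on all 6 add-back arrays and their mean was 8.01 to 8.08 and 8.02 to 8.09 in the groups. Of 7 fibroblast markers none was above the upper quartile on all 6 arrays, Lum was below the lower quartile on all of them, and their summed linear signal was 94.8 to 105 with the wild-type and 102 to 105 with the SUMO-deficient proteins. The 6 markers of 2-cell-like cells summed to 603 to 2878 and 1424 to 3977, with Tdpoz1 and Tcstv1 below the lower quartile on all 6. Zscan4c and Zscan4d had by far the highest signals of these markers, so the sums mainly follow these 2 near-identical genes. Tdpoz1 and Tcstv1 had lower means with the SUMO-deficient proteins (-0.25 and -0.22), and the other markers had higher means. Endoderm markers summed to 408 to 745 and 338 to 661, and trophectoderm markers to 69.4 to 77.1 and 75.1 to 89.2.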

How the data were processed

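RNA of 12 samples was measured on 1 array each. The authors deposited normalized log2 signals, 1 for each probe set. The submitters' processing notes name the Transcriptome Analysis Console. The sources used here give neither its version nor the background correction and normalization, and any compression of low signals carries into the differences. The log2 scale was read from the range of values. Of 41345 probe sets, 23521 with 1 symbol gave 22180 genes. The probe set of highest mean over all arrays stood for a gene with several (1082 genes), and 1814 probe sets with several symbols and 16010 with none are not named.

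Tests between groups used limma (version 3.58.1, under R 4.3.3) with lmFit and then eBayes (4 group means, 12 arrays sharing the spread), two-sided, with Benjamini-Hochberg adjustment over all genes and a threshold of 0.05. The fit was tested on simulated data. Intervals are 95% limma intervals. Tables came from Python 3.11.15 with pandas 2.3.3, and figures from matplotlib 3.10.9.

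The members and the 22 gene lists (484 of 529 entries measured) were chosen with earlier results of these data known. Named genes were those past the threshold or, since none passed, the 10 higher and 10 lower of smallest p whose groups did not overlap and whose pairs had 1 sign, leaving out predicted, olfactory and vomeronasal genes and small RNAs, with up to 4 genes per list. Genes beyond this rule were picked after their values were seen, as were the limits of signal and difference in the counts of strongly expressed genes. Same-numbered add-back arrays deviated together from their group means (r = 0.401, 0.211 and 0.469, against -0.374 to 0.008 for unlike numbers). Differences are therefore also given by pair, although the labels do not say what the numbers stand for. The main fit, with the SEs and intervals given here, does not use the pairs. Alternatives were quantile normalization, median centring, a filter on low signals, the mean of probe sets or all probe sets, the replicate block, the 6 add-back arrays only (with and without the block), trend and robust variances, array weights, a 2-fold limit and each add-back array left out. Promoter letters are from RefSeq (GRCm38.p6).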

Additional observations from a re-analysis of the deposited data

How the results depend on the processing

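The count of genes past the threshold was 0 in each direction under all 17 settings, including the replicate block, with a lowest adjusted p of 0.0556. Of 147 named genes, 0 of 2181 values over the settings passed the threshold, and 121 genes kept 1 sign throughout. The block changed no call. Of 264 list medians, 4 moved by more than the spread of the replicates. With the mean of probe sets the fibroblast markers stood at -0.10 (0.01 as reported). With 1 array left out in turn they ranged from -0.058 to 0.033, the germline and meiosis genes from -0.060 to 0.056 (-0.014 as reported) and the genes of SUMO conjugation and removal from -0.072 to 0.014 (-0.024 as reported). The 35 family genes of the 2C-like program ranged from 0.08 to 0.83 and all 70 from 0.07 to 0.41, the lowest without wild-type replicate 1. Leaving out pair 1 was added after seeing the data. The causes were not tested. Probe set signals with no detection calls limit what can be said of low genes, Duxf3, Tdpoz4, AF067063 and Gucy1a1 among them, and 3 arrays a group limit the precision.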
